A study of Mus musculus with 6 samples.

Results

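The cells described here were the 491 barcodes, of 12139 kept cells in a sort of lymph node CD169-lineage cells, that met a gate on marker genes of medullary sinus macrophages and had at least 1500 detected genes. A barcode was kept when at most 25% of its UMIs (unique molecular identifiers, each standing for 1 captured mRNA molecule) came from mitochondrial genes, when its sequence occurred in 1 capture only, and when 1 hashtag held at least 80% of its hashtag UMIs and at least 10 of them. The gated cells were then chosen by their raw mRNA counts. The gate asked for at least 2 detected genes of the 7 gate genes Marco, Cd209b, Cd209f, Cd209g, Timd4, Il22ra2 and Pla2g2d, no UMI of Cd3e, Cd3g, Ncr1 or Cd79a, and at least 1500 genes detected. Of the kept cells, 1908 had at least 2 gate genes. In 441 of these a lymphoid UMI was present (303 and 32 in the unimmunized mice, 88 and 18 in the immunized mice), and 976 of the remainder had fewer than 1500 genes. The 491 gated cells were thus 33.5% of the barcodes that met the marker part of the gate and 4.05% of all kept cells.

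The study addressed the origin and function of tingible body macrophages, the cells that clear dying B cells in germinal centres, and the medullary sinus macrophages are another population of the same reporter. CD169Tom mice (Cd169Cre/+ crossed to Tdtomato fl/fl, on a C57BL/6J background and over 6 weeks of age) report the history of Siglec1, the gene of CD169. Once a cell has expressed it, that cell and its descendants keep a red fluorescent label, TOM. Inguinal lymph nodes were taken from 2 mice left unimmunized and from 2 at day 9 after immunization with hen egg lysozyme (HEL), all carrying the same reporter alleles, and their live TOM+ cells with high CD11b were sorted. The methods give HEL joined to an ovalbumin peptide, in adjuvant, for recipients of transferred lymphocytes, and the sources do not say whether these mice received cells or adjuvant. Each mouse received 1 hashtag antibody before the cells were pooled and run on the 10X system as 2 captures. TOM records past expression of Siglec1, so it does not show that a cell made CD169 when it was sorted. The mouse was the replicate throughout (n = 2 per condition).

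Medullary sinus macrophages line the lymph channels through which fluid leaves the node, where they take up particles, microbes and dying cells from the lymph. They are set apart from other lymph node macrophages by the scavenger receptor Marco and the C-type lectin Cd209b (SIGN-R1), and share CD169 with the macrophages under the capsule and F4/80 with other medullary macrophages. They depend on CSF1R signals and on lymphotoxin and RANK ligand from neighbouring cells. In dissociated lymph nodes such macrophages break easily and their membranes can stay attached to lymphocytes.

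The assignment of each gated cell to a mouse, and its protein signal, rested on short DNA tags read beside the mRNA. The tags of the 4 hashtags are shown because they define the replicates, and those of the CD169 and CD11c antibodies because these 2 gave the widest separation between conditions. Hashtags 1 and 2 marked the unimmunized mice, and hashtags 3 and 4 the immunized mice. All are 15 bases long and are written 5′ to 3′ as deposited, in lower case.
Hashtag 1: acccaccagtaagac
Hashtag 2: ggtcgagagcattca
Hashtag 3: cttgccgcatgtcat
Hashtag 4: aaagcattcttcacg
CD169 antibody: attgacgacagtcat
CD11c antibody: gttatggacgcttgc

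The gated cells numbered 163 and 27 in unimmunized mice 1 and 2 and 227 and 74 in immunized mice 1 and 2. Both captures contributed in each mouse (91 and 72, 16 and 11, 118 and 109, and 38 and 36 cells). Summed over cells, the 4 libraries held 1717751, 262817, 2589130 and 1105871 UMIs. Unimmunized mouse 2 therefore rested on the fewest cells and UMIs, and its values have the widest counting error. The median cell had 9516, 8390, 10421 and 13530 UMIs and 2789, 2449, 2684 and 3259 genes, with immunized mouse 2 the deepest. Mitochondrial UMIs made up a median of 2.87%, 2.09%, 2.29% and 3.25%. Only doublets of 2 mice were removed, through the hashtags, so that barcodes holding 2 cells of the same mouse may remain.

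The gate was met mostly through Pla2g2d, Il22ra2 and Timd4, and less often through the receptors that define the sinus macrophages. Pla2g2d, a secreted phospholipase, was detected in 415 of the 491 cells (84.5%), Il22ra2, the soluble decoy receptor of interleukin-22, in 338 (68.8%) and Timd4, a receptor for phosphatidylserine on dying cells, in 290 (59.1%). Cd209b was detected in 120 cells (24.4%) and Marco in 106 (21.6%). The related lectins Cd209f and Cd209g were found in 8 and 4 cells. The pair Il22ra2 and Pla2g2d alone accounted for 148 cells (30.1%), and Timd4 with these 2 for a further 117 (23.8%). Just at the threshold, 269 cells had 2 gate genes, whereas 158 had 3, 52 had 4, 11 had 5 and 1 had 6. The label of these cells was thus borne out by their defining receptors in only part of them, and they are called gated cells in what follows. These values chose the cells and are given without a test.

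By mouse, in the order unimmunized 1, unimmunized 2, immunized 1 and immunized 2, the level of Marco in gated cells was 57.6, 57.1, 143 and 22.6 CPM (UMIs of a gene scaled to 1000000 UMIs of the summed library). Immunized mouse 1 was the highest and immunized mouse 2 the lowest, so that the conditions overlapped. Cd209b stood at 203, 45.7, 129 and 28.9 CPM, with the first mouse of each condition above the second. Timd4 (157, 126, 132 and 80.5 CPM) and Il22ra2 (412, 221, 262 and 248 CPM) varied less, and Pla2g2d (183, 202, 269 and 201 CPM) the least. In all other kept cells Marco was at 63.6, 28.4, 25.03 and 2.30 CPM, so in unimmunized mouse 1 it was no higher in gated than in other cells. The other kept cells include the barcodes with the same markers but fewer than 1500 genes, in which Marco was at 771, 309, 413 and 243 CPM and Cd209b at 1763, 787, 605 and 181 CPM. In every mouse these shallow barcodes held the higher level of both receptors.

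**Figure D1:**
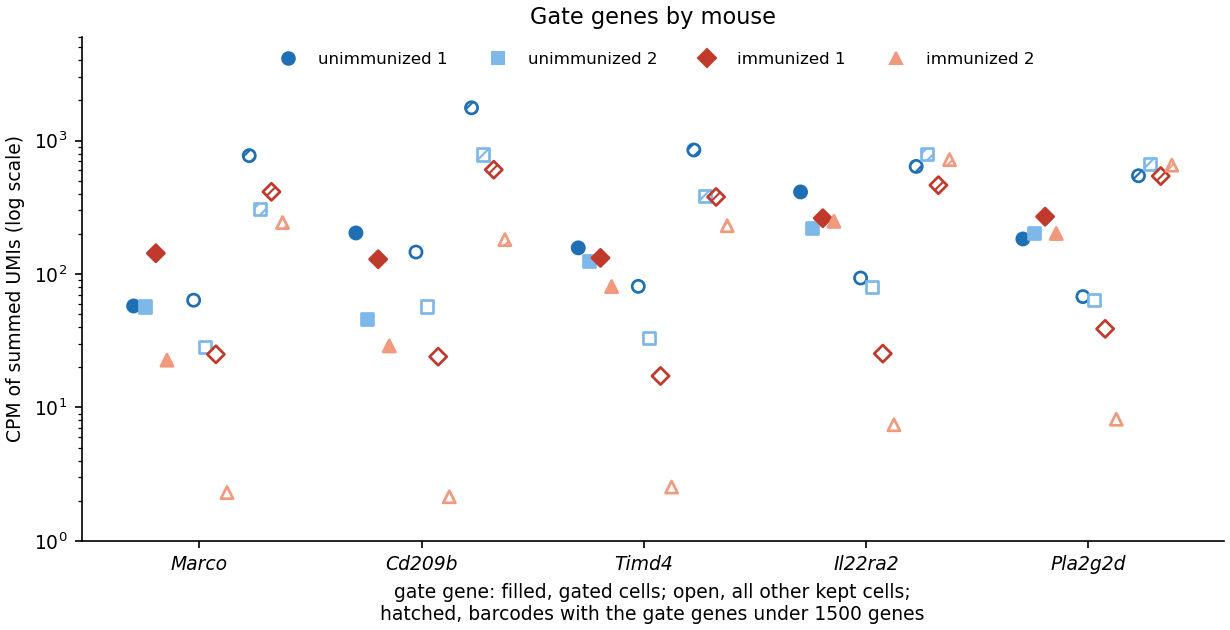
CPM of the gate genes (log scale) in each mouse, for gated cells (filled), all other kept cells (open) and barcodes with the gate genes but under 1500 genes (hatched). Marco in gated cells lies between 22.6 and 143 CPM, below the 243 to 771 CPM of the shallow barcodes.

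The gate set a floor on these counts, since each barcode needed at least 2 gate genes at any depth, so that part of the fall of their CPM with depth is fixed by the gate. Gated cells had a median of 6 gate UMIs (interquartile range 3 to 12, maximum 151) in a median of 10305 UMIs, and the 976 shallow barcodes had a median of 7 in 2840 UMIs. The gate genes summed to 879 CPM in gated cells, 3240 CPM in shallow barcodes, 126 CPM in all other kept cells and 14.5 CPM in 2036 C1q macrophages outside the gate, which had at least 10 UMIs of C1qa, C1qb and C1qc and at least 1500 genes. Around the threshold of 1500 genes the level was continuous, at 2170 CPM in barcodes with 1250 to 1499 genes and 2340 CPM in the 104 with 1500 to 1749. Above it the level went from 2450 CPM in the 48 cells with 1750 to 1999 genes to 1630 CPM at 2000 to 2499 genes (57 cells), 673 CPM at 2500 to 2999 (73 cells), 498 CPM at 3000 to 3999 (161 cells) and 354 CPM in the 48 cells above that.

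**Figure D2:**
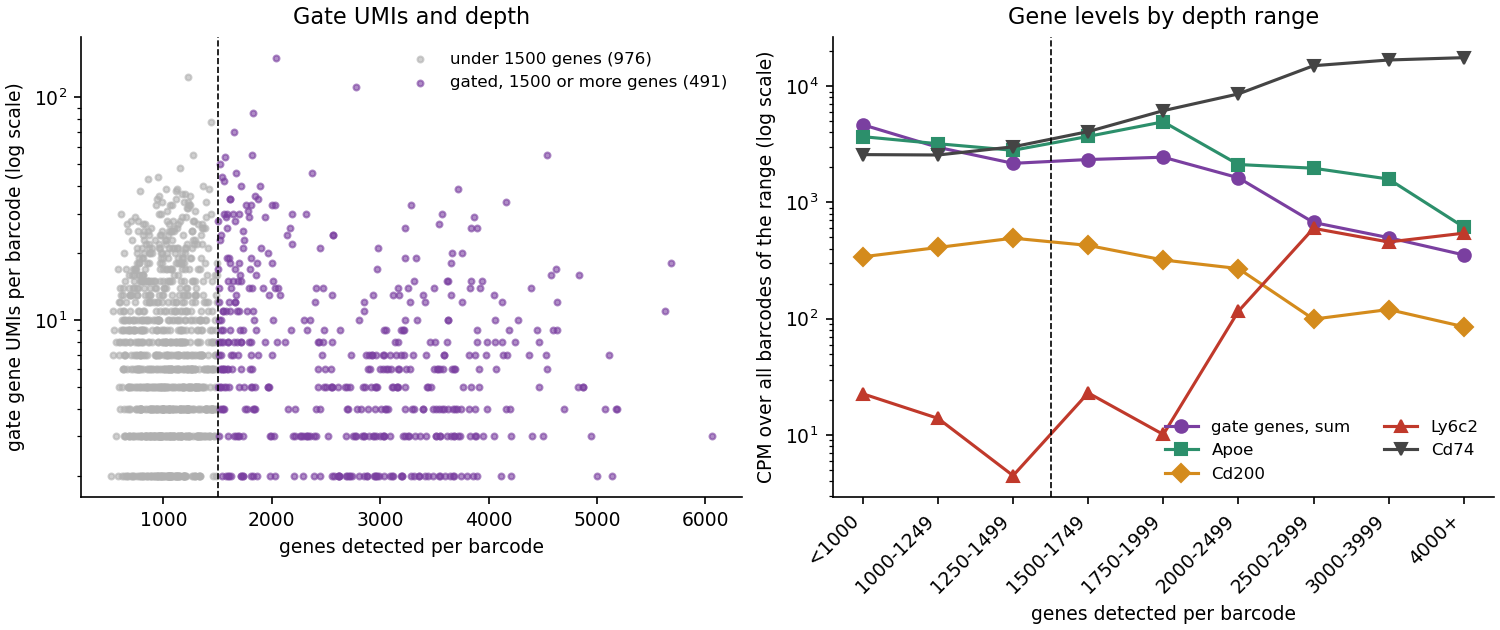
Left, gate gene UMIs (log scale) against genes detected for each barcode, with the threshold of 1500 genes dashed; right, CPM (log scale) summed over barcodes of each depth range. Gate genes stand at 2340 CPM just above the threshold and at 354 CPM in the deepest cells, whereas Cd74 goes from 4070 to 17600 CPM.

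The gated cells were also described in 2 ranges of depth, divided at 2500 detected genes. Of the 491 cells, 209 had 1500 to 2499 genes (62, 14, 108 and 25 by mouse) and 282 had at least 2500 (101, 13, 119 and 49). The gate genes summed to 2385, 1355, 2086 and 2099 CPM in the shallower range and to 637, 348, 491 and 295 CPM in the deeper range, a difference that the gate's floor sets in part. Apoe, the lipid carrier made by many tissue macrophages, stood at 2531, 1990, 3748 and 4848 CPM against 1698, 890, 1545 and 708 CPM. Cd200, the ligand of an inhibitory myeloid receptor, was at 282, 684, 343 and 382 CPM against 117, 99.5, 110 and 87.1 CPM. Both were higher in the shallower cells of all 4 mice, as was the cytokine Il18 (370, 647, 882 and 702 CPM against 233, 232, 321 and 182 CPM).

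Ly6c2, Plac8, Ccr2 and Cd74 were higher in the deeper gated cells of every mouse. Ly6c2, the marker of classical monocytes, was at 412, 978, 594 and 371 CPM in cells with at least 2500 genes and at 136, 12.2, 18.0 and 22.8 CPM in those with fewer. Plac8, another monocyte gene, was at 2689, 3012, 3141 and 2636 CPM against 1685, 867, 125 and 126 CPM. Ccr2, the receptor by which monocytes leave the marrow, was at 596, 840, 757 and 540 CPM against 327, 293, 18.0 and 34.2 CPM. For all 3 genes the shallower cells of the immunized mice held less than those of the unimmunized mice, apart from Ly6c2 in unimmunized mouse 2. Cx3cr1, a chemokine receptor of monocytes and macrophages, had no common direction, at 154, 77.4, 114 and 50.5 CPM in the deeper and 114, 109.9, 59.6 and 68.4 CPM in the shallower cells. Cd74, the invariant chain of MHC class II, stood at 15040, 17580, 16510 and 19450 CPM in the deeper cells and 8291, 5934, 4980 and 5464 CPM in the shallower cells. The antibody against Ly-6c was also higher in the deeper cells of every mouse, with mean centred log ratios (the natural log of a tag's count relative to the cell's own mean over tags) of 1.53, 2.38, 1.94 and 2.18 against 1.15, 1.03, 1.00 and 1.15. The CD169 antibody was lower in the deeper cells of every mouse (1.02, 0.669, 0.391 and −0.0256 against 1.16, 1.32, 0.689 and 0.740). So were CD68 (−0.428, −0.258, −0.506 and −0.719 against −0.0848, 0.0338, −0.116 and −0.105) and Ly-6g. The deeper cells had medians of 12070, 11630, 14760 and 16950 UMIs and the shallower cells of 5752, 6049, 6374 and 6607, and the part of this gap in the differences was not tested.

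The 170 gated cells with a UMI of Marco, Cd209b, Cd209f or Cd209g differed from the 321 without in several secreted and scavenging products. They made up 46.6%, 40.7%, 29.5% and 21.6% of the gated cells of the 4 mice (exact 95% binomial intervals 38.8 to 54.6%, 22.4 to 61.2%, 23.7 to 35.9% and 12.9 to 32.7%, which cover counting error only), so the share was lower in both immunized mice. Pooled over mice, Ccl8, a chemokine of tissue macrophages, was at 802 CPM with and 10.9 CPM without these lectins and Marco. By mouse it was at 571, 209, 1467 and 77.6 CPM against 6.17, 6.75, 13.6 and 10.9 CPM, with 20.2% of its gated UMIs in 1 cell. Maf, a transcription factor of resident macrophages, was higher in the Marco or Cd209 cells of each mouse (129, 183, 136 and 131 CPM against 49.4, 40.5, 47.4 and 60.8 CPM). Hmox1, which breaks down heme, showed the same order in each mouse (97.9, 78.5, 228 and 91.7 CPM against 45.3, 54.0, 63.6 and 85.1 CPM). Selenop, a selenium carrier (769 against 157 CPM), Cd209d (116 against 15.5 CPM) and the growth factor Igf1 (93.7 against 18.1 CPM) were higher in the pooled values, although Selenop was lower in unimmunized mouse 2 (95.9 against 155 CPM) and Cd209d in immunized mouse 2 (3.53 against 10.9 CPM). Cells without these receptors held more Cd200 (207 against 76.6 CPM), the metallothionein Mt1 (381 against 156 CPM) and Cdkn2a, an inhibitor of the cell cycle (101 against 41.9 CPM), in each of the 4 mice. The split used gate genes and mRNA of the gated cells, so it is described without a test.

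The general macrophage genes were present in gated cells at levels near those of the sort. Siglec1 itself stood at 20.4, 30.4, 15.8 and 31.6 CPM, against 11.2, 9.85, 12.9 and 27.1 CPM in other kept cells and 18.2, 16.2, 16.1 and 31.7 CPM in C1q macrophages. On the log2 scale, with 5 CPM added, gated cells lay 0.58 ± 0.50 (SD, n = 4 mice) above other cells. Adgre1, the gene of F4/80, was at 86.7, 103, 93.5 and 95.9 CPM in gated cells and at 198, 127, 168 and 120 CPM in C1q macrophages, higher in the latter in every mouse. Csf1r, the receptor on which sinus macrophages depend, was at 359, 362, 348 and 411 CPM, against 586, 480, 501 and 472 CPM in C1q macrophages. Axl, a receptor for dying cells, was at 80.9, 64.7, 58.7 and 63.3 CPM against 312, 247, 171 and 117 CPM. C1qa stood at 274, 194, 426 and 663 CPM in gated cells, whereas its levels of 2192, 2319, 2317 and 2343 CPM in the C1q macrophages follow from how these were chosen. Of Cd163 and Vsig4 there were UMIs in 0 of 491 gated cells, which allows up to 0.611% of cells with such a UMI (3 counts of the total) and sets no limit on cells expressing these genes, and Lyve1, a gene of sinus endothelium and some macrophages, had 10 UMIs in 8 cells.

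Detection was compared after thinning each cell to 1000 UMIs, with B cells of the same sort as a measure of background RNA. Free RNA, attached cell fragments and doublets can all add to this background and were not told apart. In these 479 B cells (median 8412 UMIs), which had at least 3 UMIs of Cd79a, Cd79b and Ms4a1, a Siglec1 UMI was found in 0.413% of cells, against 1.28 ± 1.00% (SD, n = 4 mice) of gated cells and 3.11% of C1q macrophages. Other kept cells had a Siglec1 UMI in 1.66 ± 1.00%, so gated cells were not above them by this measure. By mouse the share was 2.45%, 0%, 1.32% and 1.35% of gated and 1.47%, 0.784%, 1.31% and 3.10% of other kept cells. Without thinning the share in gated cells was 17.8%. Adgre1 was detected in 8.97% of gated cells, 5.48% of B cells and 12.8% of C1q macrophages, and Csf1r in 22.5%, 19.2% and 43.4%. By mouse, Adgre1 was detected in 8.59%, 14.8%, 5.73% and 6.76% of gated cells, above C1q macrophages (11.1%) in unimmunized mouse 2 and below them in the other mice. In B cells it was 4.80%, 3.85%, 4.68% and 8.60%, above gated cells in immunized mouse 2. Csf1r was detected in 27.6%, 11.1%, 22.9% and 28.4% of gated cells and 14.4%, 23.1%, 14.5% and 24.7% of B cells. For Csf1r B cells were above gated cells in unimmunized mouse 2. Apoe, in contrast, was detected in 57.3 ± 5.44% of gated cells, 30.7% of other kept cells and 22.8% of B cells. The level of Apoe in C1q macrophages was 2572, 1356, 1972 and 555 CPM, against 1880, 1233, 2158 and 1365 CPM in gated cells (log2 ratio 0.21 ± 0.76). It was higher in C1q macrophages of the unimmunized mice and in gated cells of the immunized mice. Cd200 was detected in 19.0% of gated cells, 6.99% of other kept cells and 3.35% of B cells, and in 30.2% of the shallow barcodes.

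The reporter transcript listed as Tomato had 29 UMIs in 28 gated cells (7, 1, 15 and 6 UMIs by mouse). This equals 4.08, 3.80, 5.79 and 5.43 CPM, close to the 2.90, 2.25, 4.75 and 6.13 CPM of the other kept cells. No UMI of Hy10, the other added transcript, was found in gated cells.

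Markers of other cell types were counted in the same thinned cells, as cells with at least 2 markers of a list. Monocyte markers were present in 175 of 491 gated cells (35.6%; 41.1%, 48.1%, 30% and 36.5% by mouse), against 41.2% of other kept cells, 50% of C1q macrophages and 1.75% of shallow barcodes. Their summed level was 3740, 3960, 3620 and 3100 CPM, with Plac8 the most abundant at 2340 CPM. Markers of C1q macrophages, a list that includes Apoe, were present in 52.5% of gated cells and 35.2% of other kept cells, at 3430, 2780, 4580 and 4810 CPM. The 5 MSM gate markers themselves passed this count in 17.1% of gated cells and 57.2% of shallow barcodes.

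Conventional dendritic cell markers were rarer and moved with the condition. They were found in 14 gated cells (2.85%; 6.75%, 3.70%, 0.881% and 0% by mouse), with summed levels of 314, 346, 102 and 40.7 CPM and Dpp4 the most abundant at 38.6 CPM. The list was higher in both unimmunized mice, as it also was in the other kept cells (272, 231, 134 and 58.7 CPM). T cell markers were also higher in the gated cells of both unimmunized mice (257, 167, 76.9 and 48.8 CPM, led by Il7r, 9 cells). Neutrophil markers reached 1960 CPM in immunized mouse 2 and 235, 79.9 and 244 CPM in the other mice, with Ngp at 0 and 72.8% of S100a8 UMIs in 1 cell. Plasmacytoid dendritic cell markers (30 cells, led by Bst2, which many cells express), NK cell markers (3 cells), type 17 lymphocyte markers (6 cells, Il17a at 0), B cell markers (5 cells) and plasma cell markers (1 cell) were few. Migratory dendritic cell, fibroblastic and tingible body macrophage markers were each found in 5 cells. No gated cell passed for lymphatic or blood endothelium, follicular dendritic cells, mast cells, or erythroid cells and platelets, and 3 lymphatic markers (Flt4, Mmrn1 and Reln) and 6 of 7 erythroid and platelet markers were at 0. The follicular dendritic cell markers nevertheless summed to 406, 76.1, 42.1 and 156 CPM in gated and 76.3, 47.5, 22.5 and 6.36 CPM in other cells, with 68.5% of the UMIs of Clu and 72.5% of those of Cxcl13 in the 5 highest cells of each gene.

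Among genes outside the gate, 20 were named for being higher in gated than in other kept cells in every mouse and 8 for being lower. These ratios share their counts with the gate and are described without a test. Of the 5756 genes measured, 682 (11.8%) were higher and 1241 (21.6%) lower in all 4 mice, and at least 2-fold higher or lower in all 4 were 14 (0.243%) and 15 (0.261%). These counts were 26 and 39 with 1 CPM added and 3 and 3 with 20 CPM added, and 62 genes were 2-fold higher against only the other cells with at least 1500 genes. Cd200 was at 153, 282, 175 and 134 CPM in gated and 67.3, 91.4, 37.8 and 9.17 CPM in other cells, a mean log2 ratio of 2.02 ± 0.93 (SD, n = 4 mice). The ratio was widest in immunized mouse 2, where the other cells held least. Prg3, known as a granule protein of eosinophils, followed the same pattern (224, 377, 240 and 184 CPM against 118, 113, 45.6 and 10.5 CPM). The shallow barcodes among the other cells made up 16.4%, 14.0%, 8.27% and 2.14% of kept cells by mouse. Their part in these ratios was not tested.

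Of the others, Nr1h3, the oxysterol-sensing nuclear receptor LXR-alpha, was at 137, 160, 221 and 167 CPM in gated and 64.7, 63.0, 85.5 and 63.1 CPM in other cells (log2 ratio 1.24 ± 0.15), about the same ratio in each mouse. Its target Apoe was at 1880, 1233, 2158 and 1365 CPM against 739, 748, 897 and 407 CPM (1.26 ± 0.42). In the deeper gated cells Nr1h3 was at 114, 110.5, 148 and 122 CPM and in the shallower cells at 218, 269, 411 and 405 CPM, and C1q macrophages held 135, 84.3, 154 and 81.6 CPM. Cygb, a heme globin, stood at 71.0, 79.9, 61.8 and 62.4 CPM (1.78 ± 0.71), and Hebp1, a heme-binding protein, had a log2 ratio of 1.12 ± 0.24. Means over mice in the shallower and deeper gated cells were 149 and 43.3 CPM for Cygb and 519 and 161 CPM for Prg3. The naming rule required the same direction in every mouse.

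The remaining higher genes had varied known roles. Il18 stood at 263, 362, 477 and 264 CPM against 137, 167, 200 and 124 CPM (1.08 ± 0.13). Cd33, an inhibitory sialic acid-binding lectin, was at 102, 114, 113 and 110 CPM, nearly equal in the 4 mice (1.61 ± 0.58). Mt1, a zinc-binding metallothionein, was at 254, 407, 311 and 367 CPM (1.24 ± 0.26). Ehd1, which recycles endocytosed membrane, was at 264, 335, 377 and 388 CPM (1.20 ± 0.20), and the SNARE protein gene Vamp5 had a ratio of 1.14 ± 0.34. Of the cell cycle genes, Ccnd1 (cyclin D1) had a ratio of 1.43 ± 0.62 and Cdkn2a one of 1.83 ± 0.85. Mitochondrial Chchd10 (1.24 ± 0.32) and Mrpl38 (1.03 ± 0.24), the dehydrogenase Dhrs1 (1.13 ± 0.40), Nostrin (1.26 ± 0.41), Ogfrl1 (0.95 ± 0.20), 1300017J02Rik (1.98 ± 0.98) and 2900052N01Rik (1.91 ± 0.82) completed the list. All 20 genes had a mean log2 ratio below 0 against the shallow barcodes, in which Apoe, for instance, stood at 3502, 3441, 3103 and 2689 CPM.

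The 8 genes that were lower in gated cells followed the same rule in the other direction. S100a10, a calcium-binding partner of annexin, was at 188, 171, 104 and 148 CPM in gated and 862, 462, 247 and 240 CPM in other cells (log2 ratio −1.37 ± 0.62). S100a4 was at 1760, 1389, 1846 and 973 CPM against 2737, 2470, 2813 and 1611 CPM (−0.70 ± 0.10). Itgb7, the beta chain of a gut-homing integrin (−0.97 ± 0.26), Klrk1, the activating receptor NKG2D (−1.16 ± 0.47), Arhgap45 (−0.80 ± 0.15), Ramp1 (−0.77 ± 0.18), Zcchc7 (−0.69 ± 0.13) and Sp100 (−0.56 ± 0.03) were the others. Each was lower in gated than in other kept cells in all 4 mice. Against the shallow barcodes all 8 had a mean log2 ratio above 0, from 1.54 for Sp100 to 2.64 for Ramp1. Against C1q macrophages Itgb7 (0.68) and S100a10 (0.42) had a mean above 0 and the others a mean below it.

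**Figure D3:**
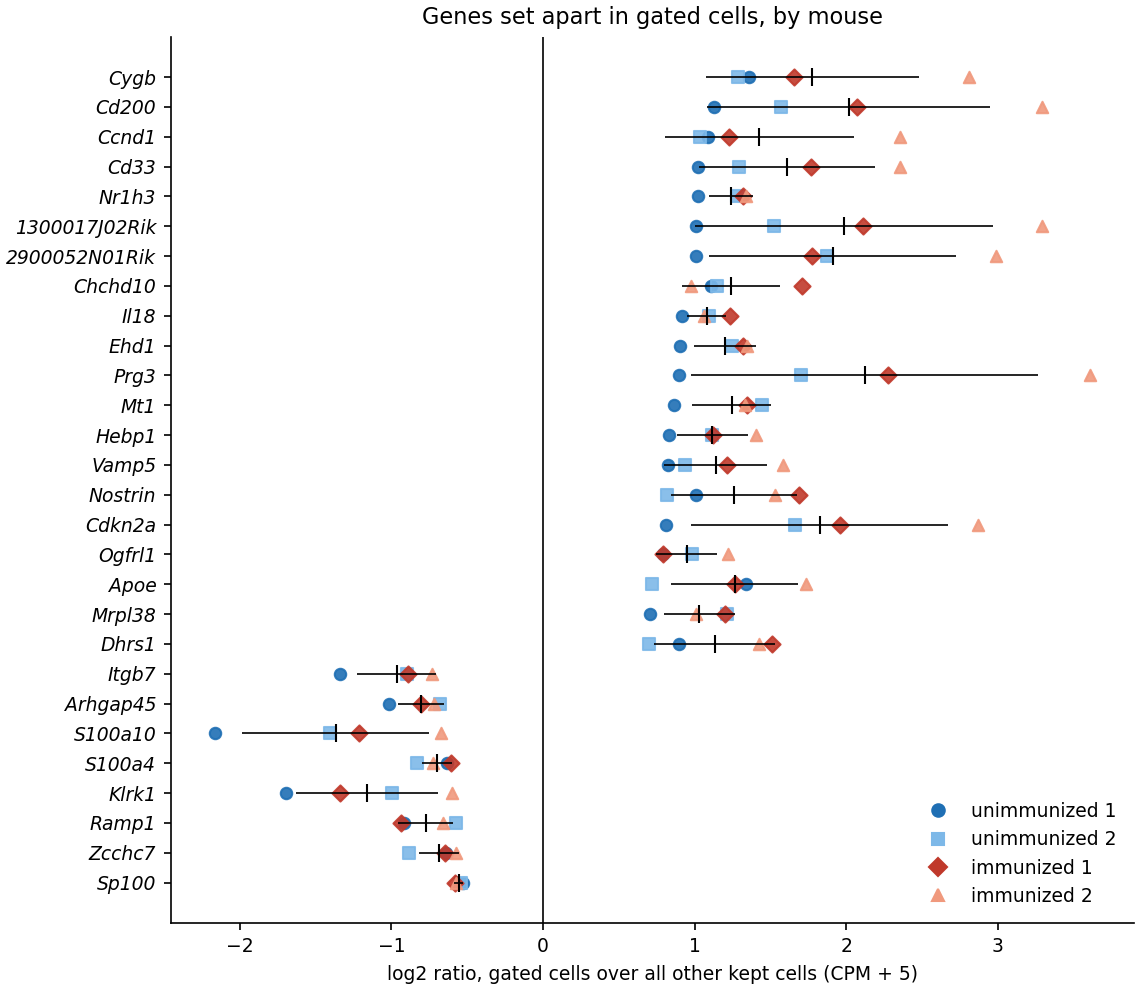
Log2 ratio of CPM (5 CPM added) in gated cells over all other kept cells for the named genes; each point is 1 mouse, the tick the mean of the 4 mice and the line its SD. Every point of the first 20 genes lies above 0 and every point of the last 8 below it, and Nr1h3 (1.24 ± 0.15) varies less between mice than Cd200 (2.02 ± 0.93).

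Among the gene lists outside the gate, iron and heme handling and glycolysis had the largest shares of members higher in every mouse, 50% and 47.1%, beside 11.8% of all genes. Of 12 measured genes of iron and heme handling, 6 were higher in gated cells in every mouse and 0 lower, with a median log2 ratio of 0.39, against a median of −0.06 over all genes. The ferritin heavy chain Fth1 was at 10280, 9744, 15060 and 17860 CPM against 6105, 5802, 8459 and 12650 CPM (0.71 ± 0.15). Ftl1, the light chain (0.44 ± 0.10), Blvrb, which reduces biliverdin (0.53 ± 0.24), and Ncoa4, which carries ferritin to lysosomes (0.74 ± 0.35), had the same direction. Fth1 was higher still in the shallow barcodes, at 20640, 20510, 29810 and 32330 CPM. Of 17 glycolysis genes 8 were higher and 0 lower in every mouse, with a median of 0.28. Against C1q macrophages the medians of the 2 lists were −0.06 and 0.08, beside 0.01 over all genes. Cytokine genes outside the gate (9 measured, 2 higher, 0 lower) had a median of 0.54, with Tnfsf13, the B cell factor APRIL, at 146, 148, 174 and 124 CPM against 66.6, 78.2, 105 and 80.7 CPM.

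Of 23 transcription factors and growth factor receptors of macrophages 6 (26.1%) were higher and 2 lower in every mouse, with a median log2 ratio of 0.14. Of 34 lysosomal genes 5 (14.7%) were higher and 2 lower (median 0.05), of 20 lipid genes 4 (20%) and 0 (median 0.08), and of 10 complement genes 3 (30%) and 1 (median 0.14), beside 11.8% of all genes higher in every mouse. Neither the 5 scavenger receptors measured nor the 6 Fc receptors had a member on the same side in all 4 mice. Of 18 MHC class I genes 0 were higher and 5 (27.8%) lower, and of 36 type I interferon genes 1 and 4 (11.1%), with a median of −0.19, beside 21.6% of all genes lower in every mouse. The 14 MHC class II genes had a median of −0.09 against other cells and −0.64 against C1q macrophages, and the 13 measured lineage and sinus macrophage genes outside the gate had medians of 0.20 and −0.64.

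The antibody signals were not used by the gate and could be tested. CD169 on gated cells had mean centred log ratios of 1.07, 1.01, 0.533 and 0.233, against 0.881, 0.501, −0.251 and −0.668 on other kept cells. Gated cells were higher in 4 of 4 mice, by 0.596 ± 0.316 (SD, n = 4 mice), and the gap was wider in the immunized mice. CD169 was lower in the immunized mice on both gated and other cells. The other cells include the shallow barcodes, which made up 16.4%, 14.0%, 8.27% and 2.14% of kept cells by mouse. The part of these barcodes in the gap was not tested. CD68, an endosomal protein of macrophages, was higher in 4 of 4 mice by 0.395 ± 0.180. CD11c, an integrin of dendritic cells and many macrophages, was higher in 4 of 4 by 0.195 ± 0.149. F4/80 was lower in 4 of 4 mice by a mean difference of −0.352 ± 0.163, Ly-6c by −0.564 ± 0.414 and Ly-6g, a neutrophil antigen, by −0.269 ± 0.0375. For each of the 6 antibodies the exact two-sided sign-flip test over 4 mice gave p = 0.125, also after Benjamini-Hochberg adjustment over the 6, which is the smallest p this design allows.

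The order of the signals depended in part on the cells compared and on the scale. C1q macrophages had CD169 values of −0.401, −0.369, −0.656 and −0.769, below gated cells in every mouse, and higher F4/80 values (0.123, −0.549, −0.0786 and −0.247 against −0.843, −1.21, −1.04 and −0.805). Shallow barcodes with the same markers had CD169 values of 0.978, 0.937, 0.734 and 0.732. The median CD169 count was 85, 64, 35 and 21 on gated cells and 42, 24, 4 and 3 on other cells. When log2 mean counts were used in place of centred ratios, F4/80, Ly-6c and Ly-6g were higher on gated cells by 0.467, 0.407 and 0.678 on average. For Ly-6c the mice differed, with median counts of 95, 54, 51 and 90 on gated and 41, 47, 74 and 123 on other cells, higher on gated cells of the unimmunized mice and lower on those of the immunized mice.

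**Figure D4:**
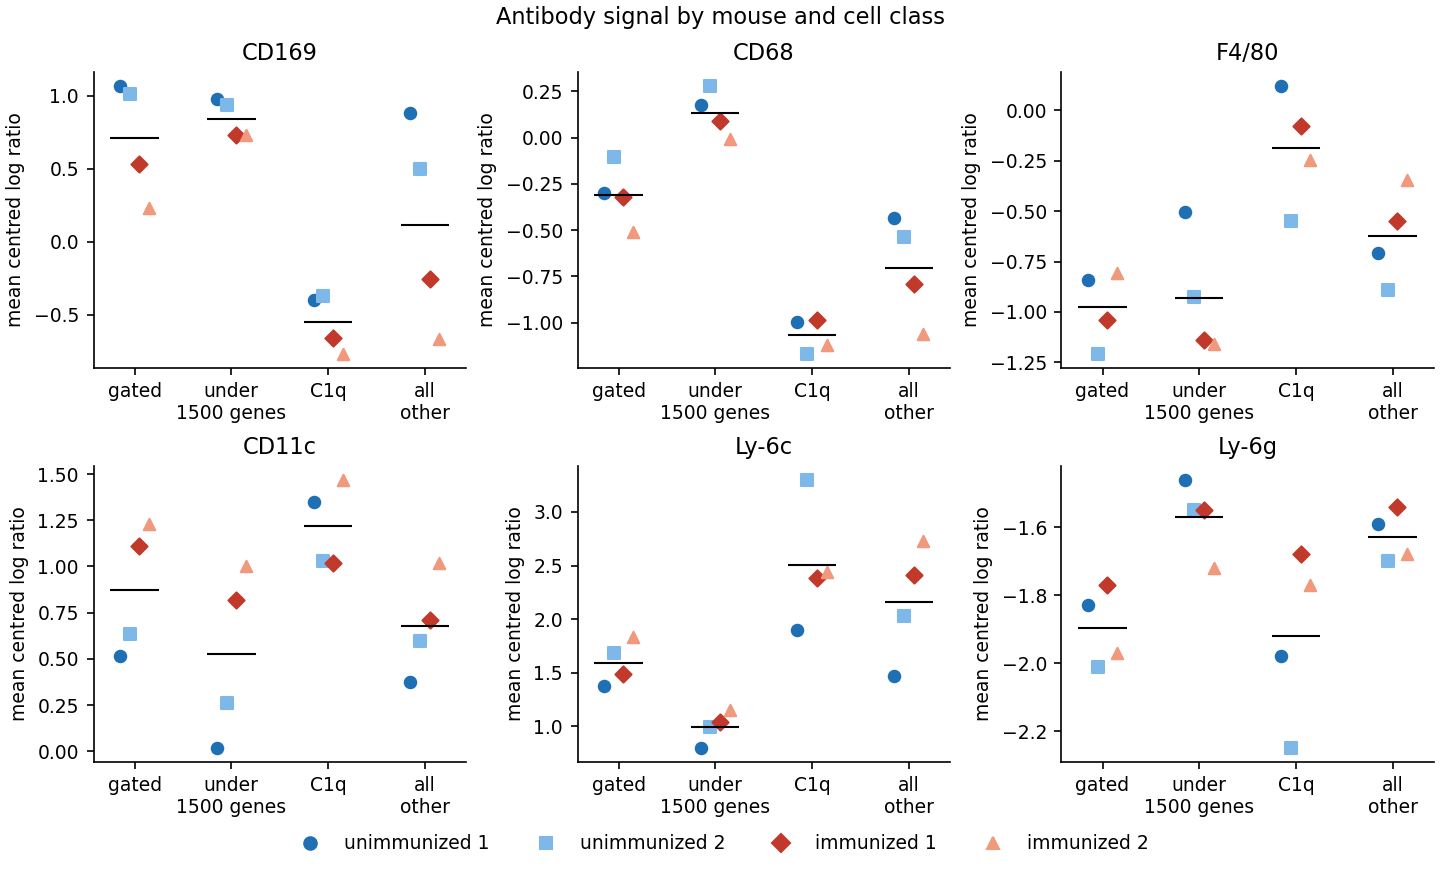
Mean centred log ratio of the 6 antibodies in gated cells, shallow barcodes with the gate genes, C1q macrophages and all other kept cells; each point is 1 mouse. CD169 on gated cells ranges from 0.233 to 1.07 and lies above C1q macrophages (−0.769 to −0.369) in every mouse.

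The share of gated cells among kept cells was 5.76% and 5.03% in unimmunized and 5.60% and 1.57% in immunized mice (exact 95% binomial intervals 4.93 to 6.69%, 3.34 to 7.23%, 4.91 to 6.36% and 1.23 to 1.96%). Immunized mouse 2 was low, whereas immunized mouse 1 lay between the unimmunized mice. The means were 5.40 ± 0.52% and 3.58 ± 2.85% (SD, n = 2 mice each), a difference of −1.81 percentage points (exact two-sided permutation p = 0.667, the smallest possible being 0.333). Without immunized mouse 2 the difference was 0.206 points. In immunized mouse 2 the C1q macrophages made up 33.1% of kept cells, against 1.34%, 5.03% and 10.1% in the other mice. The part of this in the share of gated cells was not tested.

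Immunized and unimmunized gated cells were compared by summed counts in 1 fit of 16 libraries (gated cells, shallow barcodes, C1q macrophages and the remaining cells of each mouse). With edgeR's quasi-likelihood test and Benjamini-Hochberg adjustment, 4 of 10071 genes (0.0397%) passed 0.05, all lower in the immunized mice, and 0 rose. At an unadjusted p under 0.05, 723 genes (7.18%) were higher and 547 (5.43%) lower. This balance depended on the scaling, since 507 were higher and 716 lower with RLE size factors and 495 and 596 in DESeq2, where the median log2 difference of all genes was −0.067 and −0.065 in place of −0.002. DESeq2 called 59 genes higher and 25 lower (0.834%). With the mouse as a block in limma-voom, which pairs the cell classes of each mouse, no gene passed. The smallest adjusted p was 0.15 there (1069 genes at an unadjusted p under 0.05). This fit changes the test as well as the pairing. Leaving out either unimmunized mouse left 0 calls, whereas 234 were made without immunized mouse 1 and 56 without immunized mouse 2. Each of these fits leaves 1 gated library in a condition, which is assumed to vary like the other libraries.

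Cst3, which encodes the cysteine protease inhibitor cystatin C, was at 4493 and 4395 CPM in unimmunized and 1824 and 1740 CPM in immunized mice. The 2 conditions lay well apart, and the UMIs came from 461 of the 491 cells. It fell by 1.14 ± 0.17 on the log2 scale (SE, edgeR adjusted p = 0.0214). Among gated cells with at least 3 gate genes the log2 difference was −0.18 (edgeR adjusted p = 0.967), and with the mouse block it was −1.13 (limma-voom adjusted p = 0.15). It passed in DESeq2 (−1.21), with RLE size factors (−1.21, adjusted p = 0.00979) and in the gated libraries alone (−1.16, adjusted p = 0.038). In edgeR it did not pass at 1000 or more genes (−1.09, adjusted p = 0.136) or 2000 or more genes (−1.18, adjusted p = 0.0608). Neither capture alone gave a call (−1.45, adjusted p = 0.0964 in capture 1, and −0.72, adjusted p = 0.322 in capture 2). Without the top 10% of cells by UMIs the difference was −0.89 (adjusted p = 0.183). In C1q macrophages the level was 1976 and 1907 CPM in unimmunized and 1866 and 2221 CPM in immunized mice.

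Wdfy4, needed for cross-presentation by type 1 conventional dendritic cells, stood at 146 and 126 CPM in unimmunized and 32.1 and 27.1 CPM in immunized mice. It fell by 2.02 ± 0.26 on the log2 scale (edgeR adjusted p = 0.0192), with UMIs in 150 cells. Gm43914, annotated on chromosome 6 at 129418179-129418772 (GRCm38, plus strand), lies within Clec9a (129408862-129424763, same strand), so that reads of the 2 genes may not be told apart. It was at 49.5 and 72.3 CPM against 9.27 and 6.33 CPM and fell by 2.61 ± 0.36 (edgeR adjusted p = 0.0208), from 33 cells. Hspa1a, an inducible heat shock protein gene below the level set for named genes and added because it was called, was at 36.7 and 41.9 CPM against 4.64 and 1.81 CPM and fell by 3.18 ± 0.48 (edgeR adjusted p = 0.0364), from 34 cells. For all 4 genes every immunized mouse was below every unimmunized mouse. In only the gated cells with under 2500 genes, a subset chosen after the data were seen, 634 of 9008 genes (7.04%) were called. Cst3 passed there (log2 difference −1.47, edgeR adjusted p = 0.00649), but Wdfy4 and Gm43914 did not (log2 difference −1.50, adjusted p = 0.0743, and −1.81, adjusted p = 0.193).

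The other lower genes named did not pass the test. Clec9a, a receptor for dead cells, was at 44.2 and 87.5 CPM against 12.4 and 7.23 CPM (log2 difference −2.27, edgeR adjusted p = 0.141, 36 cells), but the difference turned to 0.27 (adjusted p = 0.898) in gated cells with under 2500 genes. The nucleic acid sensor Tlr3 was at 27.4 and 68.5 CPM against 5.02 and 5.43 CPM (−2.75, adjusted p = 0.114, 37 cells), and the transcription factor Id2 was at 309 and 293 CPM against 112 and 94.0 CPM (−1.36, adjusted p = 0.141). Xcr1, a chemokine receptor of type 1 conventional dendritic cells that was added after its values were seen, stood at 69.9 and 107 CPM against 8.11 and 0.904 CPM, from 25 cells. The conventional dendritic cell marker list moved the same way (314 and 346 against 102 and 40.7 CPM), and its part in the 4 calls was not tested. Other lower genes named without passing were Ece1, Ets1, Mbnl1, Arsb and Havcr2, with log2 differences from −0.79 to −2.37. In summed counts, fewer cells of a type and less mRNA per cell cannot be told apart.

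On the higher side the 12 genes named by p value did not pass. Saa3, an acute-phase protein gene, was at 100 and 87.5 CPM in unimmunized and 377 and 809 CPM in immunized mice (log2 difference 2.81 ± 0.54, edgeR adjusted p = 0.131), with 19.3% of its UMIs in 1 cell. Lyz2, lysozyme of myeloid cells, was at 9823 and 10480 CPM against 15560 and 20200 CPM (0.99 ± 0.21, adjusted p = 0.153), in all 491 cells. Vim, the intermediate filament vimentin, was at 993 and 1027 CPM against 1633 and 1671 CPM (0.89 ± 0.18, adjusted p = 0.141). Both immunized mice lay above both unimmunized mice for each. Cst7, another cystatin, was at 11.1 and 3.81 CPM against 45.6 and 33.5 CPM (2.24, adjusted p = 0.114). AW112010, an interferon-inducible transcript, was at 930 and 875 CPM against 1538 and 2387 CPM (1.3, adjusted p = 0.153). Svbp (adjusted p = 0.0956), Nit2, Nubp1, Mrpl34, the proteasome subunit gene Psmb1, Lamtor4 and the mitochondrial transporter gene Tspo had log2 differences from 0.67 to 1.42.

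**Figure D5:**
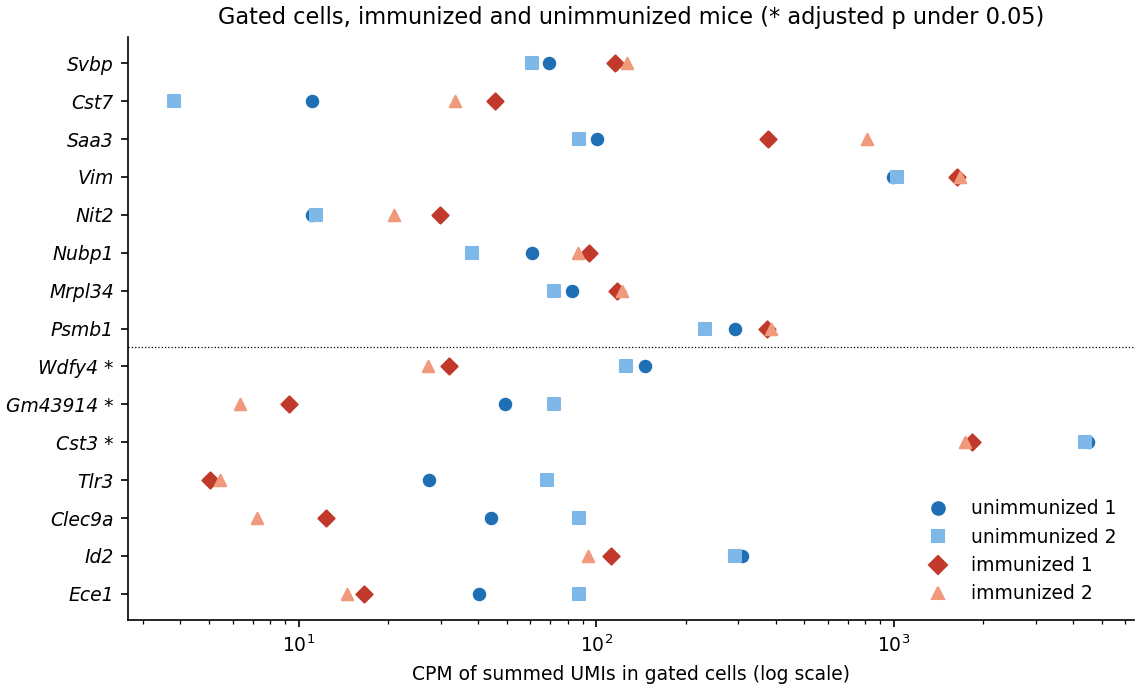
CPM in gated cells (log scale) of the 15 named genes with an adjusted p under 0.15 in the comparison of immunized and unimmunized mice, 1 point per mouse, the first 8 higher and the last 7 lower in the immunized mice. Asterisks mark the 3 of them with an adjusted p under 0.05, and Cst3 lies at 4493 and 4395 CPM in unimmunized and 1824 and 1740 CPM in immunized mice.

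By gene list, interferon-gamma induced genes most often had both immunized mice above both unimmunized mice. This held for 12 of 21 tested (57.1%), against 13% of all genes tested, with a median log2 difference of 0.91 against 0.00 over all genes. Mice were ordered by CPM, whereas medians and p values came from the edgeR fit, which rescales the libraries. By CPM 31.0% of all genes were lower in both immunized mice, although the fit's median was 0.00. Of the 21, 6 were higher at an unadjusted p under 0.05, beside 7.18% of all genes, and 0 passed. Cxcl9, a chemokine for T cells, was at 337 and 533 CPM against 563 and 1122 CPM, and Cxcl10 at 116 and 26.6 CPM against 261 and 295 CPM. Gbp2 was at 136 and 247 CPM against 214 and 493 CPM, with the conditions overlapping. Type I interferon genes had the other direction in 20 of 43 (46.5%), against 31.0% of all genes with both immunized mice lower, with a median of −0.20. Of the 43, 2 were lower at an unadjusted p under 0.05, beside 5.43% of all genes. Ifi27l2a was at 1316 and 2230 CPM against 1021 and 772 CPM. The lists were counted in gated cells only. In other kept cells Cxcl9 was also higher in the immunized mice (144.5 and 218.3 against 628.3 and 1609 CPM), as was Cxcl10 (68.68 and 125.7 against 263.2 and 423.8 CPM). C1q macrophages held Cxcl9 at 374.8 and 217.3 against 1442 and 1724 CPM. Cxcl10 was lower in shallow barcodes (62.77 and 139.9 against 48.42 and 33.19 CPM), and Ifi27l2a overlapped in other kept cells.

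Metabolic and effector lists had medians above 0. In glycolysis, 6 of 17 genes (35.3%) were higher and 0 lower in both immunized mice, beside 13% and 31.0% of all genes (median 0.94). Of the 17, 4 were higher at an unadjusted p under 0.05, beside 7.18% of all genes. Gapdh was at 892 and 1221 CPM against 1391 and 2313 CPM, and in other kept cells at 658.5 and 744.6 CPM against 962.9 and 2132 CPM. In iron and heme handling 7 of 16 (43.8%) were higher and 3 (18.8%) lower in both immunized mice, beside the same 13% and 31.0% (median 0.42). Fth1 was at 10280 and 9744 CPM against 15060 and 17860 CPM and Blvrb at 154 and 171 CPM against 316 and 396 CPM. In complement 6 of 18 (33.3%) were higher and 0 lower in both immunized mice (median 0.49). Factor B, Cfb, was at 298 and 255 CPM against 615 and 675 CPM (log2 difference 1.39 ± 0.31, edgeR adjusted p = 0.161). Cfb was also higher in the immunized mice in other kept cells (118.9 and 179.2 against 419.9 and 570.8 CPM). The same held in C1q macrophages (119.7 and 246.5 against 579.8 and 467.3 CPM). Of 37 lysosomal genes 12 (32.4%) were higher and 3 (8.11%) lower in both immunized mice (median 0.32). Of 18 chemokine genes 7 (38.9%) were higher and 4 (22.2%) lower (median 0.93). Of 12 scavenger receptor genes 6 (50%) were higher and 2 (16.7%) lower (median 0.70). Over all genes tested the shares were 13% and 31.0%. Macrophage transcription factors had 10 of 26 lower (38.5%, beside 31.0% of all genes) and 3 higher (11.5%, beside 13% of all genes). Among the lower was Irf8, a factor of monocytes and dendritic cells, at 485 and 616 CPM against 318 and 298 CPM. Irf8 was lower in the immunized mice only among gated cells with at least 2500 genes (514 and 746 against 282 and 266.5 CPM). Among those with fewer genes it had the other direction (380 and 330 against 411 and 462 CPM). In all these lists 0 genes passed the adjusted threshold. Of the 22 immediate early and heat shock genes 1 was called, Hspa1a, from 34 cells, beside 0.0397% of all genes.

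The antibodies were also compared between conditions within gated cells. CD169 averaged 1.04 ± 0.0470 in unimmunized and 0.383 ± 0.212 in immunized mice (SD, n = 2 mice each), a difference of −0.657. CD11c averaged 0.576 ± 0.0845 and 1.17 ± 0.0851, a difference of 0.591. For both, and for CD68 (−0.214), the 2 conditions did not overlap and the exact permutation p was 0.333 (adjusted 0.667 over 6 antibodies), the smallest this design allows. CD169 was also lower in the immunized mice on other kept cells (0.881 and 0.501 against −0.251 and −0.668). It was lower too on shallow barcodes (0.978 and 0.937 against 0.734 and 0.732) and C1q macrophages (−0.401 and −0.369 against −0.656 and −0.769). CD68 was lower on other kept cells (−0.432 and −0.536 against −0.79 and −1.06) and shallow barcodes (0.174 and 0.28 against 0.0918 and −0.00581). On C1q macrophages CD68 overlapped. CD11c was also higher in the immunized mice on other kept cells (0.376 and 0.595 against 0.712 and 1.02). The same held on shallow barcodes (0.0159 and 0.263 against 0.820 and 1.00), whereas C1q macrophages overlapped (1.35 and 1.03 against 1.02 and 1.47). The differences of F4/80 (0.1), Ly-6c (0.131) and Ly-6g (0.0482) had overlapping mice (exact permutation p = 0.667). In cells with at least 3 gate genes the CD68 difference turned to 0.0303, and on log2 counts those of F4/80, Ly-6c and Ly-6g turned to −0.292, −0.547 and −0.447.

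Whether immunization acted differently on gated cells than on other cells was tested as a difference of the log2 effects. These comparisons share the gated libraries. Against the remaining kept cells 0 of 10071 genes (0.0%) passed in edgeR without a mouse block (735 at an unadjusted p under 0.05), and DESeq2 called 25 (0.248%). With the mouse as a block, here a term for each mouse in edgeR that uses the pairing of cell classes, 68 genes were higher and 117 lower (1.84%). Cst7 had the largest positive difference among those named: its values in gated cells are given above, and the remaining cells were at 33.2, 21.4, 16.1 and 13.8 CPM (difference 3.08, edgeR adjusted p with the block 0.0004). Maf was at 83.8, 103, 70.3 and 78.7 CPM in gated cells and at 305, 163, 53.4 and 41.5 CPM in the remaining cells, a difference of 2.18 (adjusted p = 0.0105), the immunized mice being lower in both classes and by more in the remaining cells. Hp, the haemoglobin scavenger haptoglobin, was at 102, 83.7, 145 and 101 CPM in gated and 51.1, 52.3, 311 and 195 CPM in the remaining cells (difference −1.85, adjusted p = 0.00564). Ace, an enzyme of non-classical monocytes, was at 100, 98.9, 22.4 and 8.14 CPM in gated and 46.3, 43.1, 38.4 and 11.1 CPM in the remaining cells (−1.79, adjusted p = 0.0222). The make-up of the comparison cells also moved with the condition. In all other kept cells, T cell markers summed to 1900, 1210, 316 and 87.3 CPM and NK cell markers to 980, 973, 410 and 189 CPM. Their part in these differences was not tested.

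Against C1q macrophages 0 genes (0.0%) passed without the block (497 at an unadjusted p under 0.05), DESeq2 called 1 (0.00993%) and 4 (0.0397%) passed with the mouse block, all with a lower effect in gated cells. Cst3 was one (difference −1.28, edgeR adjusted p with the block 0.00618), although without the block it was −0.35 (adjusted p = 1.0) in cells with at least 3 gate genes. Its values in C1q macrophages had no common direction. Naaa, a lysosomal amidase, was at 348, 373, 167 and 209 CPM in gated cells and 146, 87.6, 204 and 311 CPM in C1q macrophages (−1.91, adjusted p = 0.00415). Ppt1, a lysosomal thioesterase, was at 417, 518, 213 and 233 CPM and 180, 201, 251 and 305 CPM (−1.50, adjusted p = 0.0129). For both lysosomal enzymes gated cells of the immunized mice were lower and C1q macrophages of the immunized mice higher than those of the unimmunized mice. The conventional dendritic cell markers were also lower in gated cells of the immunized mice (314, 346, 102 and 40.7 CPM). In C1q macrophages these markers were at 57.3, 90.8, 64.0 and 54.4 CPM. Their part in the differences was not tested. Xcr1 was the fourth, but with 0 UMIs in C1q macrophages of unimmunized mice its fitted difference depends on the prior count.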

How the data were processed

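The authors deposited UMI counts per gene, and hashtag and antibody counts per barcode, of pooled cells of 4 mice in 2 captures; the submitters' processing notes name Cell Ranger 4.0.0 and mm10. The notes and methods do not say whether captures were equalised in depth. The 621 barcode sequences found in both captures (1242 barcodes) were left out. The members, gene lists and tests were chosen with earlier results of these data known. Kept cells held 18943001, 3817845, 39020653 and 61983132 UMIs by mouse (unimmunized 1 and 2, immunized 1 and 2).

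Counts were summed per mouse and class into 16 libraries (207219 to 36379322 UMIs) and fitted with edgeR 4.0.16 (R 4.3.3, glmQLFit, TMM, filterByExpr, 8 residual degrees of freedom), with Benjamini-Hochberg adjustment at 0.05 over all genes. The reported fit took libraries of a mouse as independent. Cell classes of 1 mouse share an animal, which pairs them (duplicate correlation 0.125, limma 3.58.1), and the block was an alternative, as was DESeq2 1.42.0. For the immunization effect the block was this correlation in a limma-voom fit. For the differences of effects it was a term for each mouse in an edgeR quasi-likelihood fit. The procedure was tested on simulated counts. Log2 ratios between classes used CPM plus 5 and no test. Genes named for immunization were the 12 largest rises and falls past 0.05 at a mean log2 CPM of at least 4 with mice of the conditions apart, then the next by p. Genes named between classes were the 20 outside the gate with the largest lowest-of-4 ratio and the 8 with the smallest highest-of-4 ratio, at 50 CPM or more, and 5 each way for differences of effects. Antibody counts were expressed per cell as centred log ratios. Exact tests used scipy 1.17.1 under Python 3.11.15, with pandas 2.3.3 and numpy 2.4.6. Coordinates are from GENCODE vM21. Clec7a, Fdcsp, Mx1 and Mx2 were not analysed here. One gene that the naming rule selected is not reported here.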

Additional observations from a re-analysis of the deposited data

Results flagged for a closer look

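The log2 ratio of Ccnd1 in gated over other kept cells was 2.354 in immunized mouse 2, far from the 1.089, 1.038 and 1.224 of unimmunized mice 1 and 2 and immunized mouse 1. It was the 1 such value in 34 sets of 4 mice examined, and chance alone sets apart about 1 set in 20.

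With the mouse as a block, the immunization effect on gated cells differed from that on the remaining cells for several named genes. The difference of log2 effects was 3.08 for Cst7, 2.33 for Impdh1, 2.18 for Maf, 2.47 for Cxcr2 and 2.33 for Apol7c, and −1.85 for Hp, −2.4 for Smpdl3b, −2.1 for Tlr13, −1.79 for Ace and −1.9 for Creb5. Impdh1, which makes guanine nucleotides, was at 18.6, 7.61, 39.0 and 24.4 CPM in gated and 16.9, 14.5, 8.21 and 4.43 CPM in the remaining cells. Cxcr2, a neutrophil chemokine receptor, was at 14.6, 7.61, 25.9 and 28.0 CPM in gated cells, from 81 cells. Apol7c was at 43.1, 3.81, 126 and 175 CPM, with 13.4% of its UMIs in 1 cell. Tlr13, a sensor of bacterial RNA, was at 30.9, 19.0, 11.6 and 12.7 CPM in gated and 8.52, 12.5, 18.4 and 17.1 CPM in the remaining cells. Smpdl3b (23.9, 41.9, 13.1 and 44.3 CPM) and Creb5 (17.5, 26.6, 11.97 and 55.2 CPM) had overlapping conditions in gated cells. T cell and NK cell markers of the other kept cells were lower in both immunized mice, and their part in these differences was not tested.

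Against C1q macrophages the difference was −12.4 for Xcr1, −1.91 for Naaa, −1.28 for Cst3 and −1.5 for Ppt1. The value for Xcr1 is no bound, since unimmunized C1q macrophages held 0 UMIs. None of these 14 differences passed in edgeR without the block when genes with low counts were filtered out, and all 14 passed without that filter. DESeq2 called Cst7 and Tlr13 against the remaining cells and Cst3 against C1q macrophages.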

How the results depend on the processing

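With 2 mice per condition the counts of calls moved with nearly every choice. Calls higher and lower in immunized gated cells were 175 and 138 without a filter on low counts, 59 and 25 in DESeq2, 3 and 10 with the gated libraries alone, 18 and 10 at a hashtag share of 90%, and 318 and 316 in gated cells with under 2500 genes (chosen after seeing the data). There were 4 higher calls in capture 2 alone. Lower calls were 1 at 2000 genes or more, and 0 at 1000 genes or more, at 3 gate genes or more, in capture 1 alone, without the top 10% of cells by UMIs, and with the mouse as a block. Leaving out 1 mouse gave 0 to 148 higher and 0 to 86 lower calls. For the difference from the remaining cells the counts were 83 and 91 without the filter, 6 and 19 in DESeq2, 68 and 117 with the mouse block and 41 and 188 under 2500 genes, with 4 lower calls in capture 1 alone and 0 to 31 higher and 0 to 4 lower when 1 mouse was left out. For the difference from C1q macrophages they were 18 and 27 without the filter, with 1 higher call in capture 2 alone, 1 lower in DESeq2, 4 lower with the block, 14 lower under 2500 genes, and 0 to 1 each way when 1 mouse was left out. The cause of these shifts was not tested. Unimmunized mouse 2 had the fewest gated cells (27) and UMIs (262817). RLE size factors and a mitochondrial limit of 10% gave 4 and 3 calls for immunization.

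Genes at least 2-fold higher and lower in gated cells of every mouse numbered 26 and 39 with 1 CPM added and 3 and 3 with 20 CPM, and 62 were higher against other cells with 1500 or more genes. Detection without thinning was 17.8% for Siglec1, 42.8% for Adgre1, 73.1% for Cd68, 78.1% for Csf1r and 44.2% for C1qa.

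The direction of the share difference turned without immunized mouse 2 (−3.83 to 0.206 points over the mice left out). Between conditions, F4/80 turned to −0.17 at 1000 genes or more, −0.114 under 2500 genes and −0.292 on log2 counts (−0.082 to 0.283 when 1 mouse was left out). Ly-6g turned to −0.0207 at 1000 genes or more, −0.172 at 3 gate genes or more, −0.0124 at a hashtag share of 90%, −0.00511 under 2500 genes and −0.447 on log2 counts (−0.0549 to 0.151 when 1 mouse was left out). Ly-6c turned to −0.168 in capture 1 alone, −0.0177 under 2500 genes and −0.547 on log2 counts (−0.0379 to 0.3 when 1 mouse was left out), and CD68 to 0.0303 at 3 gate genes or more. On log2 counts gated cells were above other cells by 0.467 for F4/80, 0.407 for Ly-6c and 0.678 for Ly-6g. Of named genes, Clec9a (0.27) and Apol7c (−1.54) turned under 2500 genes and Ece1 (0.33) at 3 gate genes or more.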
